A study of Mus musculus with 8 samples.

Results

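The CC chemokine ligands Ccl2, Ccl3, Ccl4, Ccl5, Ccl6, Ccl9, Ccl11, Ccl17, Ccl22 and Ccl24 were examined in RNA-seq libraries of eosinophils sorted from bone marrow and from small intestine. The members were the genes of the deposited expression table that carry one of these 10 symbols, and all 10 were found among its 38392 genes. Each tissue had 4 libraries, made from female wildtype mice of the strain C57/BL6. The study used mice of 6 to 14 weeks of age throughout, and the age of these animals was not given separately. Bone marrow cells were sorted as CD11b+Ly6G-Ly6C-SiglecF+SSChi and intestinal cells as CD11b+MHC-II-SiglecF+SSChi. Intestinal cells had been released by warm enzymatic digestion and enriched on CD11b beads, and bone marrow cells had not, so tissue and handling cannot be told apart. Libraries carry the names of their table columns: the bone marrow ones are BM_1, BM_3, BM_4 and BM_5, and the intestinal ones SI_6, SI_7, SI_10 and SI_11.

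CC chemokines are small secreted proteins with a pair of adjacent cysteines that draw leukocytes along a gradient through G-protein-coupled receptors. Eosinophils respond to the eotaxins, such as Ccl11 and Ccl24, through Ccr3, the main homing receptor of the lineage. Ccl3, Ccl5, Ccl6 and Ccl9 act on Ccr1, Ccl4 is a close relative of Ccl3, Ccl2 acts on Ccr2, and Ccl17 and Ccl22 act on Ccr4. Granulocytes and macrophages can themselves release several of these ligands.

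Levels are given as normalised counts, a gene's reads after scaling by the library's size factor, as mean ± SD (n = 4 libraries per tissue). A difference is the intestinal minus the bone marrow mean of the deposited variance-stabilised log2 values, ± SE, with limma p-values adjusted over all 38392 genes. This scale understates the change of genes with few reads. The libraries held 11508002 to 21289164 reads assigned to genes. Bone marrow libraries held transcripts of the eosinophil granule proteins, with Prg2 at 1831 ± 396 and Epx at 350 ± 40.2 normalised counts, but summed markers of neutrophils and their precursors came to 375574 to 483716 in them, against 504 to 648 in small intestine. The 6 summed eosinophil markers came to 2394 to 3387 in bone marrow and 16963 to 25132 in small intestine, where most of the sum was Ccr3. Of these 6, Ccr3, Siglecf and Il5ra rose, while the granule protein genes Prg2, Epx and Prg3 fell, to 147 ± 40.7, 20.6 ± 9.06 and 6.54 ± 3.65 normalised counts. Fewer cells of a type and less RNA per cell cannot be told apart in such bulk samples. Among bone marrow libraries BM_5 stood apart in breadth, with a read in 30886 genes against 19713 to 24592 in the other bone marrow libraries.

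The most abundant ligands, Ccl9, Ccl6, Ccl3 and Ccl4, lie next to each other on chromosome 11 of GRCm38, with Ccl5 beside them, and so their promoters are shown first. From Ccl9 at chr11:83572919-83578636, a gap of 9.25 kb leads to Ccl6 at chr11:83587882-83593087, then 54.8 kb to Ccl3 at chr11:83647844-83649355 and 13.2 kb to Ccl4 at chr11:83662584-83664683. Ccl4 is on the plus strand and the other three are on the minus strand. RefSeq (GRCm38.p6) held promoters for Ccl3, Ccl6, Ccl9, Ccl17 and Ccl22. The 250 bases before the start of Ccl6, Ccl9 and Ccl3 are given because these ligands took most of the reads and because Ccl6 rose where its neighbour Ccl9 did not pass the test. Each is on the minus strand, at chr11:83593088-83593337, chr11:83578637-83578886 and chr11:83649379-83649628, with the ETS core GGAAGT, or its reverse complement ACTTCC, in capitals.

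Ccl6: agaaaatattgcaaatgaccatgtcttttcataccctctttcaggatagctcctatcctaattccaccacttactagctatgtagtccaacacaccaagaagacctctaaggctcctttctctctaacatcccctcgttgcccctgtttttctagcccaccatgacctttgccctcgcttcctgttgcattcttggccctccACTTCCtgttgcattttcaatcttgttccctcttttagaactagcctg
Ccl9: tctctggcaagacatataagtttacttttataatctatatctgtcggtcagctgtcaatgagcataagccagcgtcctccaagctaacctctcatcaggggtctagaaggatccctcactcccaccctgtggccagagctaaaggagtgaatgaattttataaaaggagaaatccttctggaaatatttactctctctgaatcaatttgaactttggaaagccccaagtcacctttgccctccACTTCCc
Ccl3: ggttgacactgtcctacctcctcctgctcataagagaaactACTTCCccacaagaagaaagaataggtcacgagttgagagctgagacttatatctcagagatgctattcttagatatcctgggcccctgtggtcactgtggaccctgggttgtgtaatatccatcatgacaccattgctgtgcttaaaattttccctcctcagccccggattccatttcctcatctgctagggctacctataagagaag

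Positions are counted from the RefSeq starts, and that of Ccl3 lies upstream of the gene coordinates given above. Searched on both strands, GGAAGT began 48 bases before the start of Ccl6, 7 before that of Ccl9 and 209 before that of Ccl3. Of all 32851 promoters 19.7% held it. Of the other matched promoters, Ccl22 held it and Ccl17 did not. Also searched in the same way were NF-kB (GGGNNNNNCC, in 45.8% of promoters), AP-1 (TGANTCA, 6.75%), C/EBP (TTGCNNAA, 9.56%) and STAT6 (TTCNNNNGAA, 5.85%). Ccl9 held the NF-kB and AP-1 letters, Ccl22 the NF-kB letters and Ccl17 the STAT6 letters, and the windows of Ccl6 and Ccl3 held none of these. The longest run shared by the promoters of Ccl6 and Ccl9 was GCCCTCCACTTCC, 13 bases that were found in 5 promoters in all. It spans the match named above. Other pairs of the matched promoters shared 6 to 10 bases. These are matches of letters, not measured binding.

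The 10 ligands together took 0.00654% ± 0.00104 of the gene reads of bone marrow libraries and 0.139% ± 0.0365 of those of intestinal ones. No bone marrow library (0.00540% to 0.00779%) reached any intestinal one (0.0992% to 0.179%). Their make-up also differed between the tissues. In bone marrow Ccl9 supplied 84.3% ± 5.44 of the ligands' reads and Ccl6 12.6% ± 4.62. In small intestine Ccl6 supplied 76.3% ± 5.86, Ccl3 16.0% ± 4.23, Ccl4 4.52% ± 0.98 and Ccl9 2.79% ± 0.70. The plot of make-up by library shows Ccl9 leading in every bone marrow library and Ccl6 in every intestinal one.

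**Figure D1:**
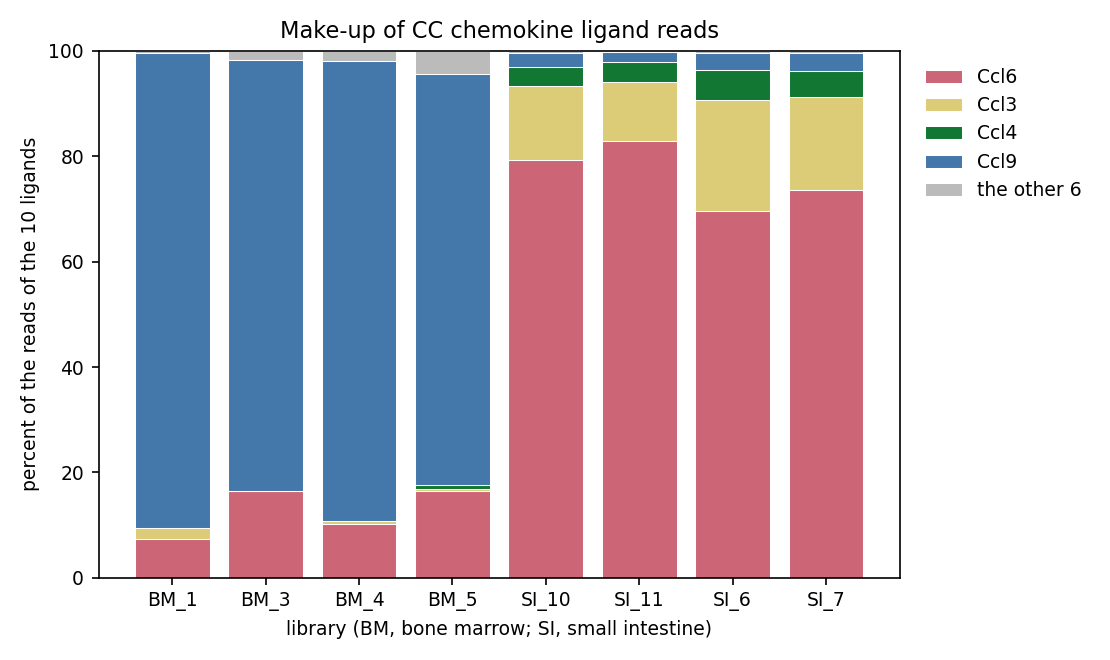
Percent of the reads of the 10 CC chemokine ligands that each ligand supplied, one bar per library of bone marrow (BM) and small intestine (SI). Ccl9 fills 78.0% to 90.1% of each bone marrow bar and Ccl6 69.6% to 82.8% of each intestinal bar.

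Of the 10 ligands, 6 rose in small intestine (Ccl2, Ccl3, Ccl4, Ccl6, Ccl17 and Ccl22), 0 fell and 4 did not pass the test, by limma at an adjusted p under 0.05. Over all genes 22.0% rose and 12.9% fell. At an unadjusted p under 0.05, 7 ligands were higher and 0 lower, and limma voom on recovered reads also gave 7 and 0. The shares of all genes at these other settings are not given here, so these counts have no background beside them. In 4 of the 10 every intestinal library lay above every bone marrow library, which held for 20.3% of all genes. The median difference was 2.18 over the ligands and 0.37 over all genes. Only 5 of the 10 had a mean of at least 10 reads over the 8 libraries, so the counts rest partly on thinly covered genes.

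**Figure D2:**
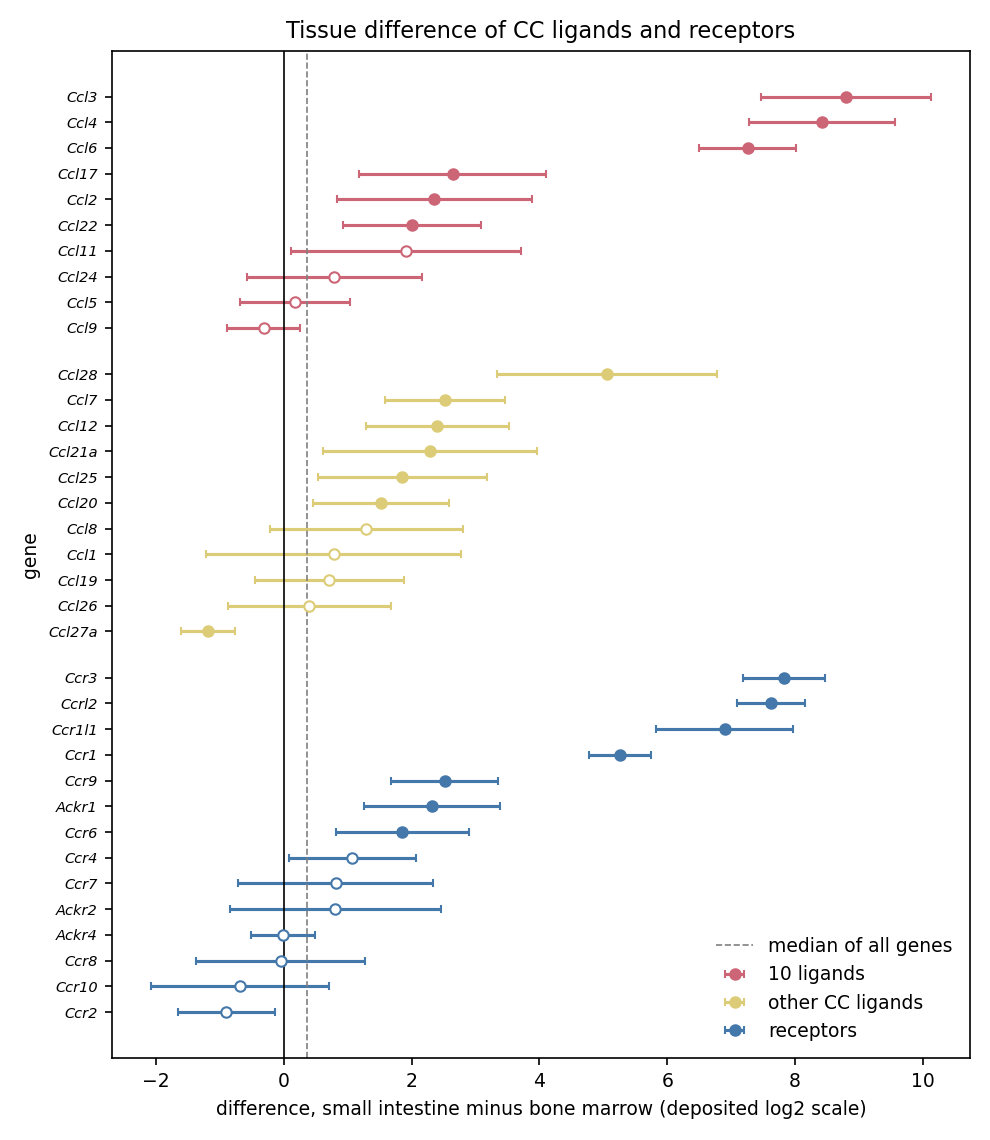
Intestinal minus bone marrow mean in deposited log2 units for the 10 ligands (top, red), 11 other CC ligands (middle, yellow) and 14 receptors (bottom, blue), with unadjusted limma 95% intervals as bars; filled points passed the adjusted threshold. Among the 10 ligands Ccl3, Ccl4 and Ccl6 sit above 7, Ccl9 lies at -0.31, and the dashed line is the median of all genes, 0.37.

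The ligands of Ccr1 and their relative Ccl4 gave the largest differences, in Ccl6, Ccl3 and Ccl4, while Ccl9 and Ccl5 did not pass the test. Ccl6, a ligand made by myeloid cells in mice, was the most abundant of the family in small intestine. Its normalised counts were 79.7, 158, 79.4 and 113 in BM_1, BM_3, BM_4 and BM_5, and 10736, 13835, 21533 and 22621 in SI_6, SI_7, SI_10 and SI_11. The tissues did not overlap, and SI_6 and SI_7 were the lower intestinal libraries. The mean rose from 107.6 ± 37.1 to 17181 ± 5810, a difference of 7.26 ± 0.33 (limma adjusted p = 2.03e-06). The read ratio was 155, with a 95% counting interval of 143 to 169 that covers counting error only. Per kilobase of exon, Ccl6 ranked 27 among 20623 protein-coding genes in small intestine and 6201 in bone marrow.

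Ccl3, an inflammatory ligand of Ccr1, had 23.8 normalised counts in BM_1 and 0.652, 3.83 and 1.86 in BM_3, BM_4 and BM_5. In SI_6, SI_7, SI_10 and SI_11 it had 3233, 3313, 3843 and 3063. The intestinal libraries lay close together, and 31 of the 38 bone marrow reads were in BM_1. The difference was 8.79 ± 0.58 (limma adjusted p = 1.21e-05), and 9.41 without BM_1.

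Ccl4, the neighbour and close relative of Ccl3, had no read in BM_1, BM_3 and BM_4 and 6 reads in BM_5. Its normalised counts were 886, 914, 998 and 1036 in SI_6, SI_7, SI_10 and SI_11. All intestinal libraries were far above all bone marrow ones, with a difference of 8.42 ± 0.50 (limma adjusted p = 7.00e-06), and 8.98 without BM_5. The read ratio of 793 had a wide 95% counting interval of 364 to 2162. The ratio of Ccl3 to Ccl4 reads varied little among intestinal libraries, at 3.65, 3.63, 3.85 and 2.96 in the same order.

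Ccl9, another Ccr1 ligand, was the most abundant of the 10 in bone marrow. It had 978, 784, 680 and 535 normalised counts in BM_1, BM_3, BM_4 and BM_5, and 482, 659, 713 and 514 in SI_6, SI_7, SI_10 and SI_11. The tissues overlapped. The means were 744 ± 186 for bone marrow and 592 ± 111 for the intestine, which is -0.31 ± 0.25 with a 95% interval of -0.88 to 0.26 (limma adjusted p = 0.389). With median centring it passed as lower (-1.21, limma adjusted p = 0.0311). Centred on genes with at least 10 reads, a setting added after seeing the data, it did not pass (-0.38, limma adjusted p = 0.358). Reads of Ccl6 per read of Ccl9 were 0.0815 to 0.212 among bone marrow libraries and 21 to 44.0 among intestinal ones. This ratio was chosen after the values were seen and is given without a test, and no scaling between libraries can move it.

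Ccl5, a ligand of Ccr1 and Ccr3 that T and NK cells make in quantity, was scarce in both tissues. It had 1.53 to 9.13 normalised counts in bone marrow and 3.56 to 9.85 in small intestine, with 29 and 22 reads in all. The tissues overlapped, and the difference was 0.18 ± 0.38 with a 95% interval of -0.69 to 1.04 (limma adjusted p = 0.741). Of 8 T and NK cell markers Cd3e and Cd8a rose, Nkg7 fell and 5 did not pass. Their sum was 5493 to 7490 in bone marrow, nearly all Nkg7, and 54.5 to 99.5 in small intestine. Without Nkg7 it was 21.1 to 60.4 and 41.5 to 86.4.

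**Figure D3:**
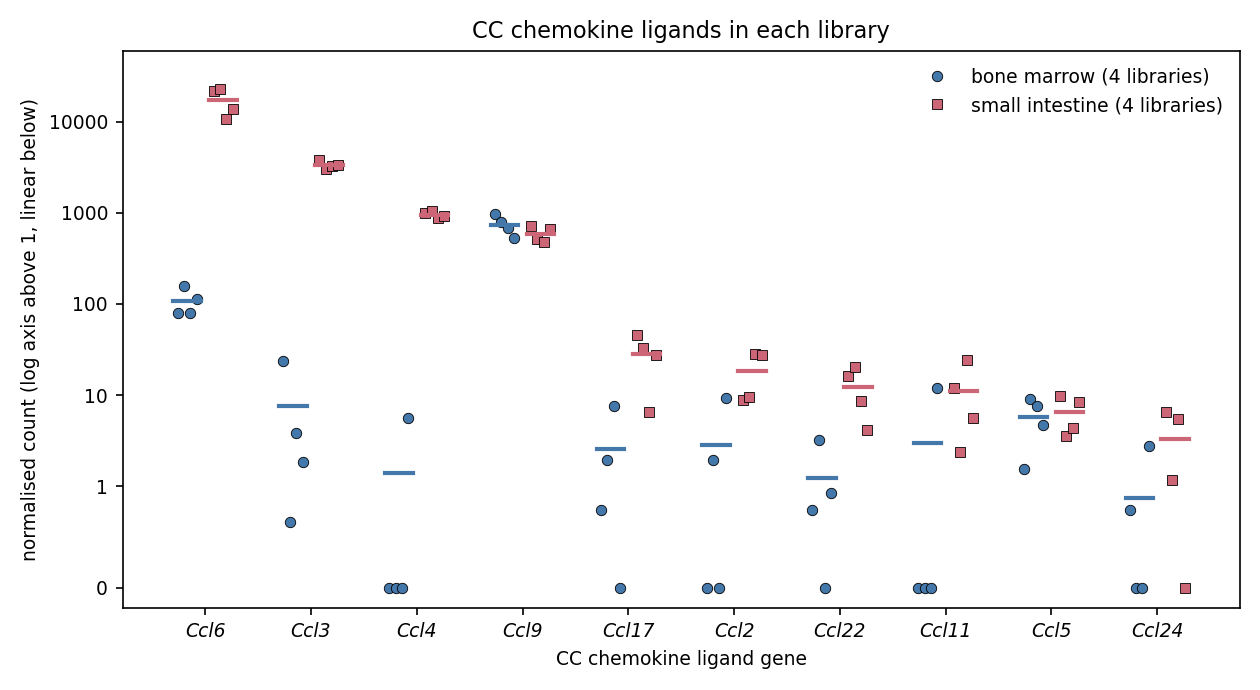
Normalised counts of the 10 CC chemokine ligands in the 4 bone marrow and 4 small intestine libraries, one point per library, on an axis that is logarithmic above 1 and linear below. Ccl6, Ccl3 and Ccl4 separate by tissue with 10736 or more, 3063 or more and 886 or more normalised counts in every intestinal library, and Ccl9 overlaps.

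The ligands of Ccr4, Ccl17 and Ccl22, lie 58.8 kb apart on chromosome 8 and attract T cells and other Ccr4-bearing leukocytes. Both rose from few reads. Ccl17 had 0.766, 1.96, 7.66 and 0 normalised counts in BM_1, BM_3, BM_4 and BM_5, and 6.55, 27.7, 45.9 and 33.2 in SI_6, SI_7, SI_10 and SI_11. SI_6 lay below BM_4, so the tissues overlapped. The difference was 2.64 ± 0.64 (limma adjusted p = 0.0120), and without SI_10 it was 2.36 with an adjusted p of 0.0588. With quantile normalisation it was 1.79 (adjusted p = 0.111).

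Ccl22 had 0.766, 3.26, 0 and 0.93 normalised counts in the bone marrow libraries and 8.73, 4.16, 16.4 and 20.2 in the intestinal ones, in the same orders. The tissues did not overlap, though SI_7 was close to BM_3. The difference was 2.01 ± 0.47 (limma adjusted p = 0.010) on 7 and 43 reads. The call was lost with median centring (1.11, limma adjusted p = 0.0507) and quantile normalisation (1.12, limma adjusted p = 0.173). It was kept with median centring on genes with at least 10 reads (1.94, limma adjusted p = 0.0161). Dendritic cells are a usual source of both ligands, and the MHC-II- gate of the intestinal sort leaves out MHC-II-bearing cells. Of 7 dendritic cell markers 4 rose (Zbtb46, Xcr1, H2-Ab1 and Cd74), Clec9a fell, and Flt3 and Cd209a did not pass. Their sum was 369 to 500 in bone marrow and 1326 to 8048 in small intestine, mostly from the MHC class II genes Cd74 and H2-Ab1. Without that pair, a split made after seeing the values, the other 5 summed to 78.9 to 143 in bone marrow and to 100.4, 133, 198 and 126 in SI_6, SI_7, SI_10 and SI_11. Ccl17 was likewise lowest in SI_6 and highest in SI_10, but Ccl22 was lowest in SI_7 and highest in SI_11. The sum of all 7 markers ran the other way, highest in SI_6 (8048) and lowest in SI_10 (1326). The part of these markers in the result was not tested.

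Ccl2, the Ccr2 ligand that draws monocytes, had 0, 1.96, 0 and 9.30 normalised counts in BM_1, BM_3, BM_4 and BM_5. It had 28.4, 27.7, 8.75 and 9.48 in SI_6, SI_7, SI_10 and SI_11. The tissues overlapped between BM_5 and SI_10. The difference was 2.36 ± 0.67 (limma adjusted p = 0.0242), and it missed the threshold without BM_1, BM_3, BM_4, SI_10, SI_6 or SI_7, each left out in turn, with limma adjusted p of 0.0541 to 0.0857. Quantile normalisation also ended the call (1.55, adjusted p = 0.0951).

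The eotaxins, which attract eosinophils through Ccr3, were near the limit of detection. Ccl11 had no read in BM_1, BM_3 and BM_4, 13 reads in BM_5 (12.1 normalised counts), and 24.0, 5.55, 12.0 and 2.37 normalised counts in SI_6, SI_7, SI_10 and SI_11. The difference of 1.91 ± 0.79 had a 95% interval of 0.11 to 3.71 and did not pass (limma adjusted p = 0.0977), and without BM_5 it was 2.67 with an adjusted p of 0.0094. It also passed with limma voom on recovered reads (3.10, adjusted p = 0.0375). Ccl24 had 4 bone marrow and 12 intestinal reads, with normalised counts of 0 to 2.79 and 0 to 6.56, and a difference of 0.79 ± 0.60 with an interval of -0.58 to 2.16 (limma adjusted p = 0.360). Both overlapped between tissues.

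The summed normalised counts of the fibroblast markers were 8.43, 24.1, 5.74 and 61.4 in BM_1, BM_3, BM_4 and BM_5, and 724, 477, 217 and 154 in SI_6, SI_7, SI_10 and SI_11. BM_5 and SI_6 were the highest libraries of their tissue for the markers and for both Ccl2 and Ccl11, and the order of the other intestinal libraries differed. SI_6 was also the highest intestinal library for the summed epithelial, dendritic, and monocyte and macrophage markers. BM_5 had a read in 30886 genes, the most among bone marrow libraries. Of the 6 fibroblast markers 5 rose, Lum did not pass, and their part in the results was not tested. Transcripts linked to tissue dissociation, such as Dusp1 and Zfp36, summed to 1803 to 2266 in bone marrow and 97815 to 130369 in small intestine. Of 14 such genes 13 rose and Dnajb1, a heat shock cochaperone, fell. Their part in the rise of Ccl3 and Ccl4 was not tested. Monocyte and macrophage markers, for cells that also make Ccl3, Ccl4, Ccl6 and Ccl9, summed to 7040 to 10101 in bone marrow, mostly Ly6c2, and to 1744 to 2685 in small intestine. Of these 9 genes 6 rose, Ly6c2 fell and Fcgr1 and Mrc1 did not pass. They were highest in SI_6, the intestinal library with the least Ccl6, and their part was not tested. Markers of neutrophils and their precursors summed to 375574 to 483716 in bone marrow. Their part in the bone marrow levels of the ligands, Ccl9 included, and in the differences was not tested either.

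Compared per kilobase of exon, the intestinal order was Ccl6 (9572 ± 3237), Ccl3 (4390 ± 439), Ccl4 (1452 ± 106), Ccl9 (194 ± 36.6) and Ccl17 (55.2 ± 31.9 normalised counts per kb). Each of these neighbours was apart in all 4 libraries. Ccl17 overlapped with the next, Ccl2. Below came Ccl2, Ccl11, Ccl5, Ccl22 and Ccl24, at means of 2.55 to 16.3, which overlapped from one to the next. In bone marrow the order was Ccl9 (244 ± 61.2) and Ccl6 (59.9 ± 20.7), apart from each other, and the remaining ligands had means of 0.533 to 9.82.

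Among the 14 other CC ligands of the mouse, 11 were in the table, and 6 rose, 1 fell and 4 did not pass. Over all genes 22.0% rose and 12.9% fell. The median difference was 1.52 over these ligands and 0.37 over all genes. Ccl28 and Ccl25, ligands made by mucosal epithelium, were the most abundant of these 11 in small intestine. Ccl28 had 0 to 8.48 normalised counts in bone marrow and 429, 189, 45.9 and 93.6 in SI_6, SI_7, SI_10 and SI_11, a difference of 5.06 ± 0.75 (limma adjusted p = 9.31e-04). Ccl25, which draws cells to the small intestine through Ccr9, had 86.7 to 147 in bone marrow and 1502, 552, 218 and 251 in the intestinal libraries. Its difference was 1.86 ± 0.58 (limma adjusted p = 0.0366), and the call was lost without BM_1, BM_3, BM_4, BM_5 or SI_7, each in turn, and with median centring (0.96). The 6 epithelial markers all rose and summed to 12568, 5212, 2023 and 2470 in SI_6, SI_7, SI_10 and SI_11, against 53.6 to 88.9 in bone marrow.

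**Figure D4:**
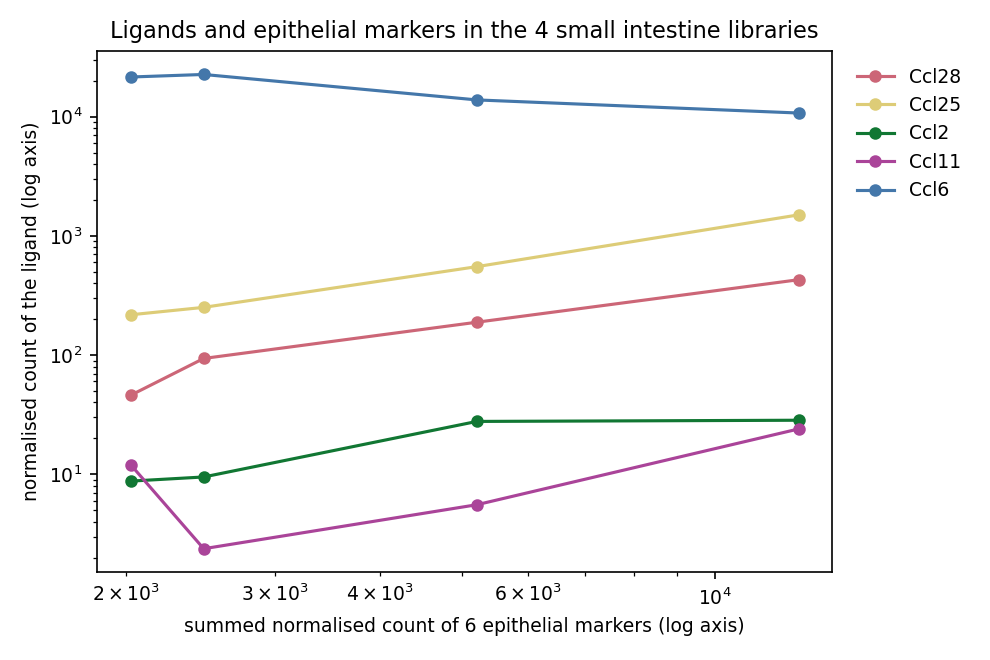
Normalised counts of Ccl28, Ccl25, Ccl2, Ccl11 and Ccl6 against the summed normalised counts of the 6 epithelial markers in the 4 small intestine libraries. SI_6 has the highest marker sum, 12568, and the highest Ccl28, Ccl25, Ccl2 and Ccl11, while it has the lowest Ccl6; no test was made of the relation.

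Ccl27a, a skin ligand of Ccr10, fell from 28.9 ± 2.30 to 10.9 ± 1.99 normalised counts (-1.18 ± 0.19, limma adjusted p = 0.00125). Ccl12, a Ccr2 ligand, rose from a mean of 0.163 to 10.5 normalised counts (2.40 ± 0.49, limma adjusted p = 0.00509). Ccl21a, a Ccr7 ligand, had 0 reads in bone marrow and 10.6 ± 10.5 normalised counts in small intestine (limma adjusted p = 0.0405). The exact 95% lower counting limit of its read ratio was 12.7, and a floor of 3 reads over the bone marrow group gave 16.6. SI_10 had 0 reads too. Its call was lost when any library but SI_10 was left out, and with quantile normalisation (1.78).

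Of 14 CC and atypical chemokine receptors, 7 rose, 0 fell and 7 did not pass by limma, where 22.0% of all genes rose and 12.9% fell. At an unadjusted p under 0.05 it was 8 and 1, and limma voom gave 7 and 1, without shares of all genes beside them. Ccr1, the receptor of Ccl3, Ccl6 and Ccl9, rose from 66.6 ± 14.9 to 2639 ± 166 normalised counts (5.26 ± 0.21, limma adjusted p = 1.18e-06). Ccr3, also a marker of the lineage, rose from 70.9 ± 25.7 to 16351 ± 2623 (7.83 ± 0.28, limma adjusted p = 7.36e-07). Ccrl2, an atypical receptor that binds chemerin, rose from 105 ± 12.5 to 21768 ± 5294 (7.62 ± 0.23, limma adjusted p = 3.02e-07). Ccr1l1, a relative of Ccr1, rose from 1.54 to 390 ± 31.7 (6.90 ± 0.47, limma adjusted p = 1.36e-05).

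Ccr9, Ackr1 and Ccr6 rose by 2.52, 2.32 and 1.86, and the call of Ccr6 was lost without SI_10 (1.80), with median centring (0.96) and with quantile normalisation (1.03). Quantile normalisation also ended the call of Ackr1 (1.22). Ccr2, the receptor of Ccl2, had 121 ± 26.8 and 65.7 ± 22.6 and did not pass (-0.90 ± 0.33, limma adjusted p = 0.0665), although its libraries did not overlap. Ccr2 passed as lower with limma voom (-0.95, adjusted p = 0.0285) and limma trend (-0.90, adjusted p = 0.0166). It also did so with median centring (-1.80, limma adjusted p = 7.6e-04) and quantile normalisation (-1.15, limma adjusted p = 0.0238). With a minimum mean of 10 reads it passed too (-0.90, limma adjusted p = 0.0292). It did not pass with median centring on genes with at least 10 reads (-0.96, limma adjusted p = 0.0574). Nor did it pass with any single library left out (limma adjusted p of 0.0530 to 0.155). Ccr4, the receptor of Ccl17 and Ccl22, had 1.59 and 4.91 normalised counts (limma adjusted p = 0.0894), and passed without BM_5 (1.43, adjusted p = 0.0174). Ackr4, a scavenger of several homeostatic ligands, had 84.9 and 83.8.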

How the data were processed

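RNA-seq was made from sorted eosinophils, with 4 libraries of bone marrow and 4 of small intestine. The authors aligned and counted reads per gene with the nf-core/rnaseq pipeline on GRCm38 (Ensembl release 86) and transformed them with DESeq2 (R 4.0.3). The values deposited by the authors are variance-stabilised and on a log2 scale. Which aligner the pipeline ran, its strand setting and its use of multi-mapping reads: not given in the sources used here. The transformation was inverted from the lowest value, 0.92971568. With a size factor per library of 0.721 to 1.53, 100% of the values came out as whole reads within 0.05 reads, the largest deviation being 0.00691. Column names gave the tissue and matched no single sample title, so a column could not be tied to a titled sample. The paper gives 4 female mice per tissue, and p-values measure the spread between their libraries.

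Genes were compared with limma 3.58.1 (R 4.3.3), run on the deposited table with its 8 libraries and 38392 genes, without filter or covariate, with Benjamini-Hochberg adjustment and a threshold of 0.05. The study fitted counts, and limma replaces that because the unit is log2. The procedure was tested on simulated data in which few genes were changed, all with a mean of at least 10 normalised counts. Recovery of changes in thinly covered genes was not tested there. Alternatives were limma voom on recovered reads, limma trend, median centring, quantile normalisation, a minimum mean of 10 reads, each library left out in turn, and, added after seeing the data, median centring on genes with at least 10 reads. In 22177 genes the mean was under 10 reads, which limits precision. Counting intervals are exact at 95%. Coordinates come from GENCODE M21, promoters from RefSeq. In 75-base windows no member transcript matched another gene. The members and lists were chosen with earlier results of these data known. Named in full were the 10 ligands, and of other ligands and receptors those with at least 10 mean normalised counts in a tissue, with the receptors of the ligands. A further receptor result is not reported here.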

Additional observations from a re-analysis of the deposited data

Results flagged for a closer look

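In each tissue a library was marked where its gap to the nearest other library exceeded 0.829 of the range of the 4. Of 51 gene and tissue groups examined 10 were marked, and chance marks about 1 in 20, here 2.55. BM_5 was the marked library in 3.

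Among the 10 ligands, Ccl3 was highest in BM_1 with a gap of 0.863 of the bone marrow range. Ccl4 and Ccl11 were highest in BM_5 with a gap of 1, since the other bone marrow libraries had no read. The 6 ligands with few reads, Ccl2, Ccl5, Ccl11, Ccl17, Ccl22 and Ccl24, summed to 5, 25, 16 and 32 reads in BM_1, BM_3, BM_4 and BM_5.

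Among the other ligands, Ccl12 had its only bone marrow read in BM_3, a gap of 1. Ccl28 was highest in BM_3 with a gap of 0.887, and Ccl25 lowest there with 0.846. Among receptors, Ccr2 was lowest in BM_4 with 0.915 and in SI_11 with 0.860, Ccr9 was highest in BM_5 with 0.834, and Ackr4 was highest in SI_11 with 0.841.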

How the results depend on the processing

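Ccl3, Ccl4 and Ccl6 kept their direction and passed under every alternative run, at 8.41 to 9.41, 8.23 to 8.98 and 7.10 to 7.46 when single libraries were left out. Among the 10 ligands, calls were lost for Ccl2 (1.55), Ccl17 (1.79) and Ccl22 (1.12) with quantile normalisation and for Ccl22 with median centring (1.11). With single libraries left out, Ccl2 ranged from 2.01 to 2.93, Ccl17 from 2.24 to 3.13, Ccl11 from 1.51 to 2.67 and Ccl5 from -0.12 to 0.37. Ccl11 passed with limma voom (3.10). Ccl9 passed as lower with median centring (-1.21). With median centring on genes with at least 10 reads, Ccl9 did not pass (-0.38) and Ccl22 did (1.94). Ccl25 and Ccr6 also kept their calls at that setting (1.79 each). Median centring turned Ccl5 to -0.72 and Ccl24 to -0.11, and quantile normalisation turned Ccl5 to -0.83. Ackr4 was 0.0063 with limma voom and ranged from -0.13 to 0.12 with libraries left out. The median over all genes was 0.37 as deposited, -0.53 after median centring, -0.03 after quantile normalisation and 0.89 with limma voom. After median centring on genes with at least 10 reads it was 0.31. The cause was not tested.

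The number of ligands that rose was 3 with quantile normalisation and 4 to 7 with libraries left out (4 without SI_10, 7 without BM_5), and 1 fell with median centring. Of all 38392 genes 8465 rose as deposited, and 6701 to 9596 rose with libraries left out. The number for quantile normalisation is not given here. Of the other CC ligands 2 of the 3 tested rose under the minimum mean of 10 reads, and 3 to 6 of all 11 rose with libraries left out. Of the receptors, 1 (Ccr2) fell with limma voom, limma trend, quantile normalisation or that minimum, and 2 with median centring. Over all genes median centring gave 4285 higher and 10216 lower. The bone marrow share of the 10 ligands was 0.00876% among protein-coding genes and 0.00831% without ribosomal RNA. The minimum of 10 reads gave no value for 5 of the 10 ligands, whose depth limits them. No paired analysis was possible because the tissues share no replicate number.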

Other observations

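Genes whose deposited values followed each ligand most closely over the 8 libraries were found by the root mean square difference of gene-centred values. Fosb (0.63) and Thbs1 (0.76) were nearest to Ccl3, and Nr4a3 (0.37) and Socs2 (0.40) to Ccl4. Slc2a6 (0.24) and Adgre4 (0.25) were nearest to Ccl6, and Il33 (0.24) and Cap2 (0.31) to Ccl2. Ugt1a6a (0.34) and Tcaf1 (0.42) were nearest to Ccl11, Tmem64 (0.56) and Cacna2d2 (0.59) to Ccl17, and Dennd2a (0.29) and Slc22a17 (0.35) to Ccl22. For Ccl9, Aasdh and Pam16 (0.15 each) were nearest, for Ccl5 Zcchc18 (0.20) and Slc26a1 (0.21), and for Ccl24 Slc7a4 (0.26) and Lca5l (0.43). The likeness is a description over 8 libraries that fall into a pair of tissues.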
